A study of Mus musculus with 2 samples.

Results

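The genes described here are the 8 of the urea cycle, namely its enzymes Nags, Cps1, Otc, Ass1, Asl and Arg1 and its carriers Slc25a15 and Slc25a13, in livers of wild-type (WT) C57B6J mice and of CREBH knockout (KO) mice on the same background. They were found as every probe whose RefSeq accession belongs to one of these genes, which gave 10 probes for the 8 genes, of 55681 probes and 20284 named genes on the array. Creb3l3 encodes CREBH, a transcription factor of liver and gut that is made as a membrane protein and released by cleavage, and the KO mice are described as null for it. Each genotype was studied fed ad lib and after a 24 h fast, and all 4 groups were liver. RNA of each group was pooled, so there were 4 pools, each measured once on 1 of 2 two-colour arrays (fed and fasted), with WT always labelled with Cy3 and KO with Cy5. The sources used here do not give the number, age or sex of the mice in a pool, the allele, or whether it is null in other tissues too. With 1 pool a group no difference had a test, and statements below describe these pools by sizes alone.

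The urea cycle turns ammonia, set free when amino acids are burnt, into urea for excretion. In liver it runs in hepatocytes, above all in those near the portal vein, and it is split between compartments. Inside mitochondria NAGS makes the activator N-acetylglutamate, CPS1 joins ammonia with bicarbonate to form carbamoyl phosphate, and OTC passes this on to ornithine. The resulting citrulline leaves, and ornithine enters, through the carrier SLC25A15. In the cytosol ASS1 joins citrulline with aspartate, ASL splits the product into arginine and fumarate, and ARG1 releases urea and returns ornithine, while SLC25A13 (citrin) exports the aspartate that ASS1 uses. Fasting, glucagon and glucocorticoids are known to raise the capacity of the cycle.

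All 10 probes were well above background in all 4 pools, and no gene spot was saturated. Of all gene spots, 39.9% to 45.9% were well above background, depending on the pool. The spread between spots, from probes printed 10 times, had a median SD of 0.09 for the log2 KO over WT ratio when fed and of 0.08 when fasted, and 0.08 for the fasted over fed difference in WT and in KO. That spread covers printing and scanning noise, and leaves out variation between mice and between labellings. Creb3l3 was lower in the KO pool, at a log2 ratio of -0.88 fed and -2.07 fasted. When each array was centred on the median of all its gene spots, Creb3l3 was at 0.31 fed, against 0.78 over all measured genes. The sources used here do not say where the probe lies relative to the deletion. Of 15 hepatocyte markers 13 were measured in all comparisons, and the other 2 had no named probe. All levels below are normalized log2 signals, which are compared between pools for 1 probe and never between genes.

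With fasting, 4 genes of the cycle were higher and the other 4 stayed near their fed level. Asl, Slc25a13, Cps1 and Arg1 were 1.54-fold to 2.37-fold higher in the WT pool after the fast, and 1.83-fold to 2.15-fold higher in KO. Ass1, Nags, Otc and Slc25a15 lay between -0.21 and 0.14 on the log2 scale in WT and between -0.28 and 0.17 in KO. At least 2-fold higher were 2 of the 8 genes in WT (Asl and Slc25a13), where 2.28% of 11441 measured genes were, and 2 of 8 in KO (Cps1 and Arg1), where 2.42% of 11785 were. None was lower by that much, as 2.05% of genes were in WT and 2.14% in KO, so 4.33% and 4.56% were 2-fold apart in either direction. Above 0 were 5 of the 8 in WT (49.4% of all genes, with 50.6% below 0) and 6 of 8 in KO (50.2%, with 49.8% below 0). The median fasting difference was 0.38 in WT and 0.52 in KO, against 0.00 over all measured genes in both genotypes.

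**Figure D1:**
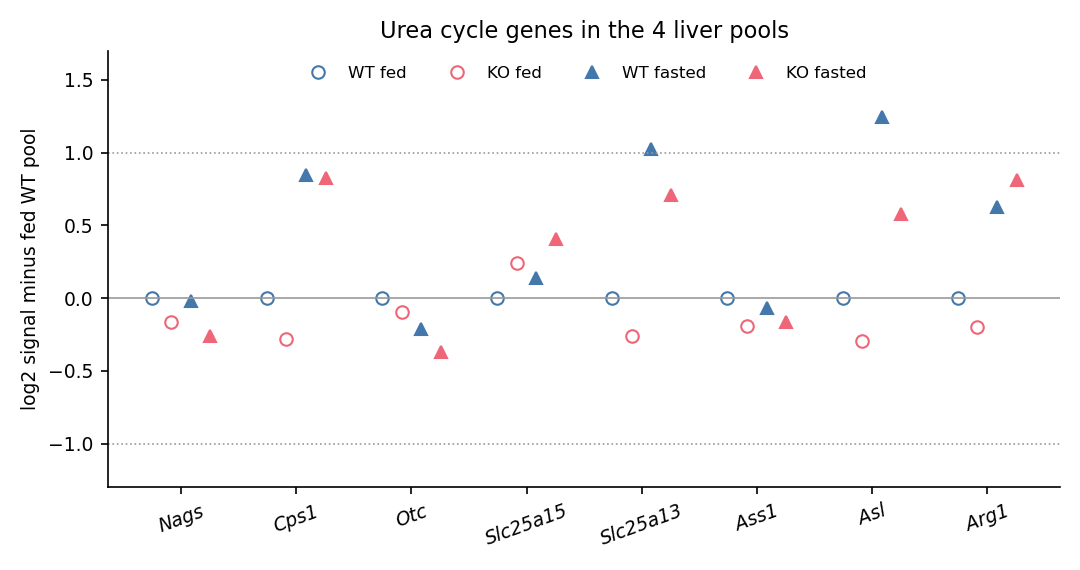
Normalized log2 signal of the 8 urea cycle genes in each of the 4 pools, as the difference from the fed WT pool (y axis), in the order of the pathway (x axis); circles are fed, triangles fasted, blue WT and red KO, and dotted lines mark 2-fold. Each point is 1 pool and 1 probe, so there are no error bars. The fasted triangles of Cps1, Slc25a13, Asl and Arg1 stand above both fed circles, while those of the other 4 genes lie within 0.41 of 0.

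Of the 3 mitochondrial enzymes Cps1 had the largest fasting difference. Its probe was at 12.31 in the fed WT pool, 12.03 in fed KO, 13.16 in fasted WT and 13.13 in fasted KO. Both fasted pools were thus above both fed pools, by 0.85 in WT (1.80-fold) and by 1.10 in KO (2.15-fold). Nags, whose product switches CPS1 on, was at 10.35 and 10.19 in the fed WT and KO pools and at 10.33 and 10.09 in the fasted ones. Its fasting difference was -0.02 in WT and -0.09 in KO, so both genotypes had Nags within 0.10 of its fed level where Cps1 was higher.

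Otc, which uses the carbamoyl phosphate made by CPS1, was measured by 2 probes that differed in sign. The brighter probe was at 12.97 (fed WT), 12.87 (fed KO), 12.75 (fasted WT) and 12.59 (fasted KO), so it was lower after fasting by 0.21 in WT and by 0.28 in KO. The other probe was printed 10 times and gave a fasting difference of 0.21 ± 0.04 (SD between 10 spots) in WT and of 0.10 ± 0.05 in KO. All 10 of its spots were above 0 in both genotypes, from 0.13 to 0.27 in WT and from 0.04 to 0.18 in KO. The probes differed by more than the noise between spots, and neither passed 1.21-fold, so no direction is given for Otc.

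Of the carriers, Slc25a13 had a large fasting difference and Slc25a15 a small one. Slc25a13, the aspartate and glutamate exchanger of liver mitochondria, was at 12.01 in the fed WT pool and 11.75 in fed KO, and at 13.03 and 12.72 in the fasted pools. This is 2.03-fold higher in WT and 1.96-fold higher in KO, a log2 difference of 1.02 and 0.97. Its paralog Slc25a12 (aralar), which does the same exchange in other tissues, was measured too and was higher after fasting by 0.69 in WT and 0.72 in KO. Slc25a15, the ornithine and citrulline exchanger, was at 8.58, 8.81, 8.71 and 8.98 in the fed WT, fed KO, fasted WT and fasted KO pools, a fasting difference of 0.14 in WT and 0.17 in KO. It gave the weakest spot signal of the 8 genes (median 176.0 in Cy3 fed). Its paralog Slc25a2 was not well above background.

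In the cytosol the entry step had a small fasting difference and the later steps larger ones. Ass1, which takes up citrulline and aspartate, was at 16.26 in the fed WT pool, 16.07 in fed KO, 16.19 in fasted WT and 16.10 in fasted KO, and its second probe was at 15.61, 15.52, 15.44 and 15.43. Over both probes the fasting difference lay between -0.17 and 0.03. Asl, the next enzyme, was at 12.69 in the fed WT pool and 12.40 in fed KO, against 13.94 in fasted WT and 13.27 in fasted KO. Its difference of 1.24 in WT (2.37-fold) was the highest of the 8 genes there and was exceeded by 1.40% of all measured genes. In KO it was 0.87 (1.83-fold), exceeded by 3.28% of genes. Arg1, which ends the cycle, was at 13.99 and 13.79 in the fed WT and KO pools and at 14.62 and 14.80 in the fasted ones, 1.54-fold higher in WT and 2.01-fold higher in KO. Arg2, the arginase of mitochondria, was not well above background.

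**Figure D2:**
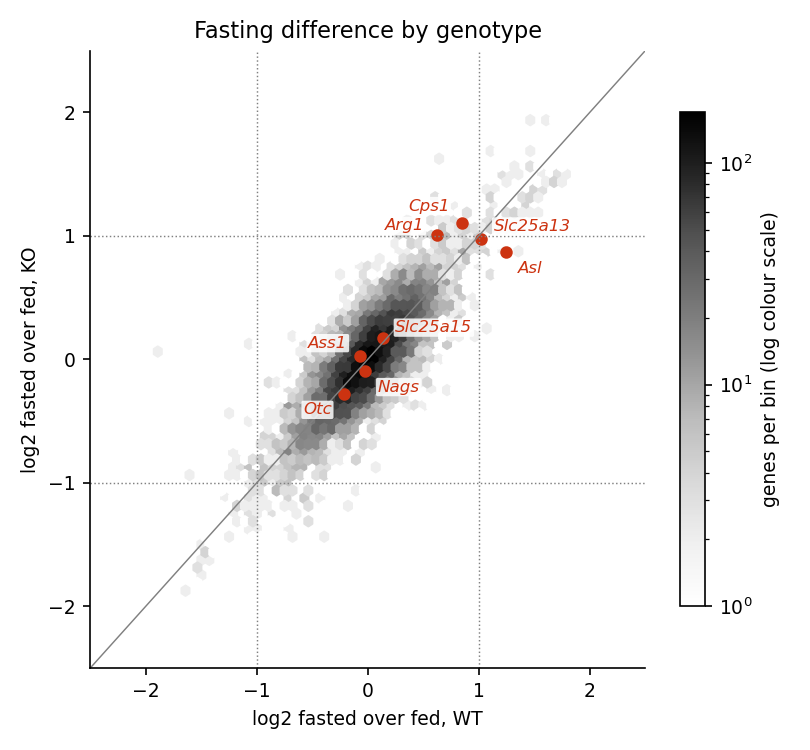
Log2 fasted over fed difference in WT (x axis) and in KO (y axis), with the 8 urea cycle genes in red over all genes measured in all 4 pools in grey (darker bins hold more genes, on a log colour scale; genes beyond 2.5 in either direction are outside the axes). Dotted lines mark 2-fold and the solid line marks equal values; Asl, Slc25a13, Cps1 and Arg1 lie towards the upper right, and Otc, Ass1, Nags and Slc25a15 in the bulk of genes around 0.

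The fasting comparison crosses arrays, so its values depend on how the arrays were scaled to each other. Fed and fasted pools were on different arrays, so an effect of array or labelling on single probes cannot be told apart from fasting. The WT and KO fasting values come from the same spots of these arrays, so they are not independent. Without normalization between arrays the median of all genes moved to 0.46 in WT and 0.45 in KO, and all 8 urea cycle genes were above 0. Under each alternative that gives this comparison (the authors' table does not) the lowest of Cps1, Asl, Arg1 and Slc25a13 stayed above the highest of Otc, Ass1, Nags and Slc25a15, by 0.47 to 0.54 in WT and by 0.67 to 0.76 in KO. A change of scale between arrays moves all genes by similar amounts and could hardly change this order. The gap in WT was 0.49 both in the main processing and without normalization between arrays. These groups of genes were formed from the fasting values themselves, so the gap is a description of them.

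Promoter sequence was at hand for 5 of the 8 genes (6 transcript starts, RefSeq, GRCm38.p6), and the 250 bases before each start were searched on both strands for short motifs. Slc25a13 is the one gene of those higher after fasting that has an entry. The letters TGACG, the core of the CRE that CREB proteins bind and contained in the full CRE, lay in 1 of the 6 windows, before Slc25a13, whereas the E-box CACGTG, bound by USF and related factors, lay in 3, before Slc25a13, Ass1 and a start of Slc25a15. The windows of 30 bases around these matches are shown because they set a gene that was higher after fasting beside 2 that were not. Each reads 5′ to 3′ on the strand of the gene, with the matched letters in capitals.
Slc25a13 E-box, chr6:6217281-6217310, minus strand: cacagtctgagtCACGTGtcctggcccctc
Slc25a13 CCAAT box and TGACG, chr6:6217174-6217203, minus strand: gggcccagCCAATgggcTGACGgcacccgc
Ass1 E-box, chr2:31470222-31470251, plus strand: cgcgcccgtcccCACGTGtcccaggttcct
Slc25a15 E-box, chr8:22398337-22398366, minus strand: cgccctgccgcaCACGTGccgcggctccgg
The same E-box letters thus lay before a gene that was about 2-fold higher after fasting and before genes within 0.17 of 0 on the log2 scale. Over all 32851 promoters of the table, CACGTG was in 6.02%, TGACG in 17.8% and CCAAT in 33.8% of windows of this length. The full CRE TGACGTCA (1.55% of promoters), TATAAA (12.4%) and the C/EBP site TTGCNNAA (9.56%) were in none of the 6 windows. A match is a string of letters and no measured site.

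Between the fed KO and WT pools no urea cycle gene passed 2-fold under the main processing. That is 0 of 8 genes, against 0.554% of 11377 measured genes (0.158% higher and 0.396% lower in KO). WT was labelled with Cy3 and KO with Cy5 on both arrays. In any KO over WT ratio here, fed or fasted, genotype and a dye effect of a probe cannot be told apart. Ratios of KO over WT ran from -0.29 (Asl) to 0.24 (Slc25a15), with a median of -0.20 against 0.01 over all genes. Below 0 were 7 of the 8 genes and 46.9% of all measured genes, and above 0 were 1 of 8 and 53.1%. Cps1 was at -0.28, Slc25a13 at -0.26, Arg1 at -0.20, Ass1 at -0.19, Nags at -0.17 and Otc at -0.10. The scanner software gave each of these ratios an error of 0.20 to 0.21 on the log2 scale, and no gene was more than 1.41 of its errors from 0. The direction depended on the processing. Scanner-processed signals and the authors' table each gave a median of -0.22, with 1 of 8 genes above 0. When the centre of each array was set by its gene spots well above background, without loess, the median was 0.21. All 8 genes were then above 0, and relative to the median of all genes the median of the 8 turned from -0.21 to 0.15. With centring on all gene spots the median was 0.92, against 0.78 over all genes. There 4 of the 8 (Otc, Ass1, Arg1 and Slc25a15) were 2-fold higher in KO, as were 27.3% of all genes.

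In the fasted state Asl stood apart as the lowest urea cycle gene in the KO pool. None of the 8 was 2-fold apart, as 0.791% of 12262 measured genes were (0.359% higher and 0.432% lower in KO). Asl was at 13.94 in WT and 13.27 in KO, a log2 ratio of -0.67 (1.59-fold lower). Under the main processing 1.15% of measured genes had a lower ratio than Asl. The scanner software put it at -0.66 with an error of 0.21, a ratio over error of -3.10, whereas every other probe of the cycle lay within 1.53 errors. Slc25a13 followed at -0.31, Nags at -0.24, Otc at -0.16 and Ass1 at -0.09. Cps1 was at -0.02, and Arg1 (0.18) and Slc25a15 (0.27) were above 0. The median was -0.13 against 0.01 over all genes, and 6 of 8 genes were below 0, as were 47.3% of all genes, with 52.7% above 0. When the arrays were centred on gene spots well above background, this median was 0.30 with 6 of 8 above 0, and relative to all genes it turned from -0.14 to 0.23. With centring on all gene spots it was 0.80, against 0.57 over all genes. There 2 of the 8 (Arg1 and Ass1) were 2-fold higher in KO, as were 7.67% of all genes.

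**Figure D3:**
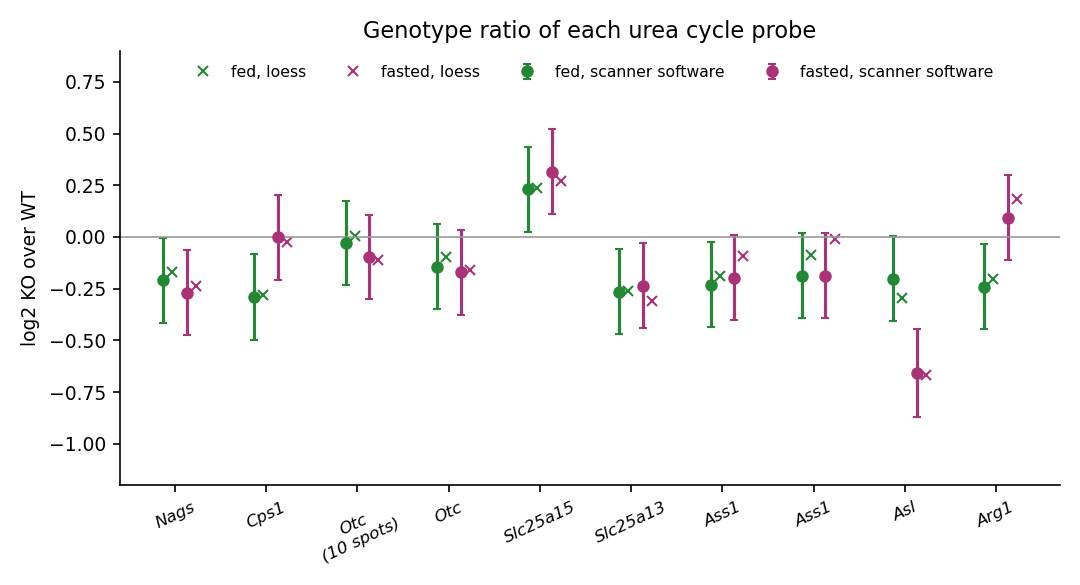
Log2 KO over WT ratio (y axis) of each of the 10 urea cycle probes (x axis) on the fed (green) and fasted (purple) arrays; dots with bars are the scanner software's ratio and its error for 1 spot, taken as the mean over 10 spots for the repeated Otc probe, and crosses are the loess-normalized ratios. Asl on the fasted array, at -0.66 with an error of 0.21, is the lowest, and no other dot is more than 1.53 errors from 0.

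How low Asl was compared with WT depended on the scaling, but its place among the 8 did not. With arrays centred on gene spots well above background its fasted ratio was -0.22, and with centring on all gene spots it was 0.27. Under both, 20.9% of measured genes had a lower ratio than Asl, against 1.15% in the main processing and 2.45% with scanner-processed signals. Both centrings lift the other genes as well, and under every alternative Asl stayed 0.21 to 0.39 below the next lowest urea cycle gene of the fasted array. Arg1 lay 0.75 to 0.92 above Asl there, against -0.04 to 0.19 on the fed array. The last pair of enzymes of the cycle thus had genotype ratios that lay close together in the fed pools and apart in the fasted ones.

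Taken gene by gene, the same values show genotype ratios of Asl and Arg1 that differed between feeding states in opposite directions. The fasted minus fed difference of the KO over WT ratio was -0.37 for Asl and 0.39 for Arg1, followed by Cps1 at 0.26, and was within 0.10 of 0 for the other 5 genes. A dye effect of a probe cancels in this difference. None of the 8 passed 2-fold, as 1.37% of 11290 genes did (0.771% higher, 0.602% lower). Above 0 were 4 of 8 (48.8% of all genes) and below 0 the other 4 (51.2%), and the median spread between spots was 0.10. Below Asl were 5.42% of genes and above Arg1 5.71%. Over the alternatives Asl ranged from -0.56 to -0.34 and Arg1 from 0.18 to 0.39, so neither changed direction. With arrays centred on all gene spots, however, Otc (-0.34), Nags (-0.32) and Slc25a13 (-0.24) lay farther from 0 than Arg1 (0.18). Over the alternatives Ass1, Slc25a15 and Slc25a13 crossed 0, while Cps1, Otc and Nags kept their direction as Asl and Arg1 did. Put by genotype, fasting went with a smaller difference of Asl in KO (0.87) than in WT (1.24) and with larger ones of Arg1 (1.01 against 0.62) and Cps1 (1.10 against 0.85). Whether these differences hold between animals was not tested, since each pool was measured once.

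Genes that bring nitrogen to the cycle were spread widely on fasting. Of 18 such genes 16 were measured. Got1, which makes cytosolic aspartate, was at 1.57 in WT and 1.27 in KO, and Slc25a22, a mitochondrial glutamate carrier, at 1.25 and 1.28. These 2 of 16 were the genes at least 2-fold higher in each genotype, against 2.28% of all genes in WT and 2.42% in KO. Gpt2 (0.81 in WT, 0.44 in KO), an alanine aminotransferase, and Slc38a4 (0.69 and 0.40), an amino acid transporter, had smaller differences. The mitochondrial Got2 was at 0.07 and 0.06. Rhbg, an ammonium transporter of hepatocytes near the central vein, was at -1.08 and -0.86, Car5a, which supplies bicarbonate to CPS1, at -0.58 and -0.61, glutamine synthetase (Glul) at -0.49 and -0.55, and glutamate dehydrogenase (Glud1) at -0.31 and -0.40. The list had a median of 0.24 in WT and 0.03 in KO. Between genotypes no gene was 2-fold apart, as 0.554% of all genes were fed and 0.791% fasted. Gls2, the liver glutaminase of portal hepatocytes, was the lowest in the fasted KO pool at -0.74, followed by Slc38a3 at -0.46 and Got1 at -0.40, and Rhbg the highest at 0.69. With centring on all gene spots the fasted KO over WT median of the list moved from -0.23 to 0.61. That of all genes moved from 0.01 to 0.57.

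Among 17 genes that use or carry ornithine, arginine and urea, 12 were measured in all 4 pools. Oat, which degrades ornithine, was 2-fold higher after fasting in both genotypes, at 1.76 in WT and 1.07 in KO. Its KO over WT ratio was 0.85 fed, the highest of the list, and 0.17 fasted. Gamt, of creatine synthesis, was at -1.04 in WT and -0.995 in KO, and its second probe was at -0.99 and -0.95. The arginine transporter gene Slc7a2 was at 0.77 and 0.43, and at -0.54 in KO over WT when fasted, the lowest of the list. Odc1, which starts polyamine synthesis from ornithine, was at 0.45 and 0.53, though its 3 probes ran from 0.0032 to 0.45 in WT. Aqp9, a channel that passes urea, was at 0.13 and -0.08. No gene was 2-fold apart between genotypes in either state, as 0.554% of all genes were fed and 0.791% fasted.

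A list of 15 genes holds regulators tied to urea cycle expression in other work, such as hormone receptors and transcription factors, and Tat, a hormone-responsive enzyme that is not a regulator. Of these 15 genes 14 were measured in all pools, and none passed 2-fold. On fasting, 4.33% of all genes were 2-fold apart in WT and 4.56% in KO. The list's median fasting difference was 0.48 in WT and 0.11 in KO. Sirt5 (-0.06 in WT, 0.07 in KO) was the 1 gene of the 14 with a higher value in KO. Nr3c1 was below 0 in both genotypes, at -0.23 in WT and -0.28 in KO, and its second probe was at -0.78 and -0.86. The used probe of Ppara was at 0.99 in WT and 0.19 in KO, and its other 2 probes at 1.03 and 0.34 in WT and at 0.41 and -0.25 in KO. Cebpb was at 0.74 and 0.14, Ppargc1a at 0.70 and 0.35 and Foxo1 at 0.56 and -0.19. In the fasted comparison all 15 had KO over WT ratios below 0, as had 47.3% of all genes, with a median of -0.35, led by Ppara (-0.74), Cebpa (-0.59), Foxo1 (-0.52) and the glucagon receptor gene Gcgr (-0.43). In the fed comparison the median was -0.05, with Klf15 at 0.51. With arrays centred on all gene spots the fasted median was 0.49, against 0.57 over all genes. The fasted minus fed difference of the list had a median of -0.28 and ranged from -0.47 to -0.25 over the alternatives. The 3 probes of Ppara were at -0.76 to -0.71 for fasted KO over WT.

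**Figure D4:**
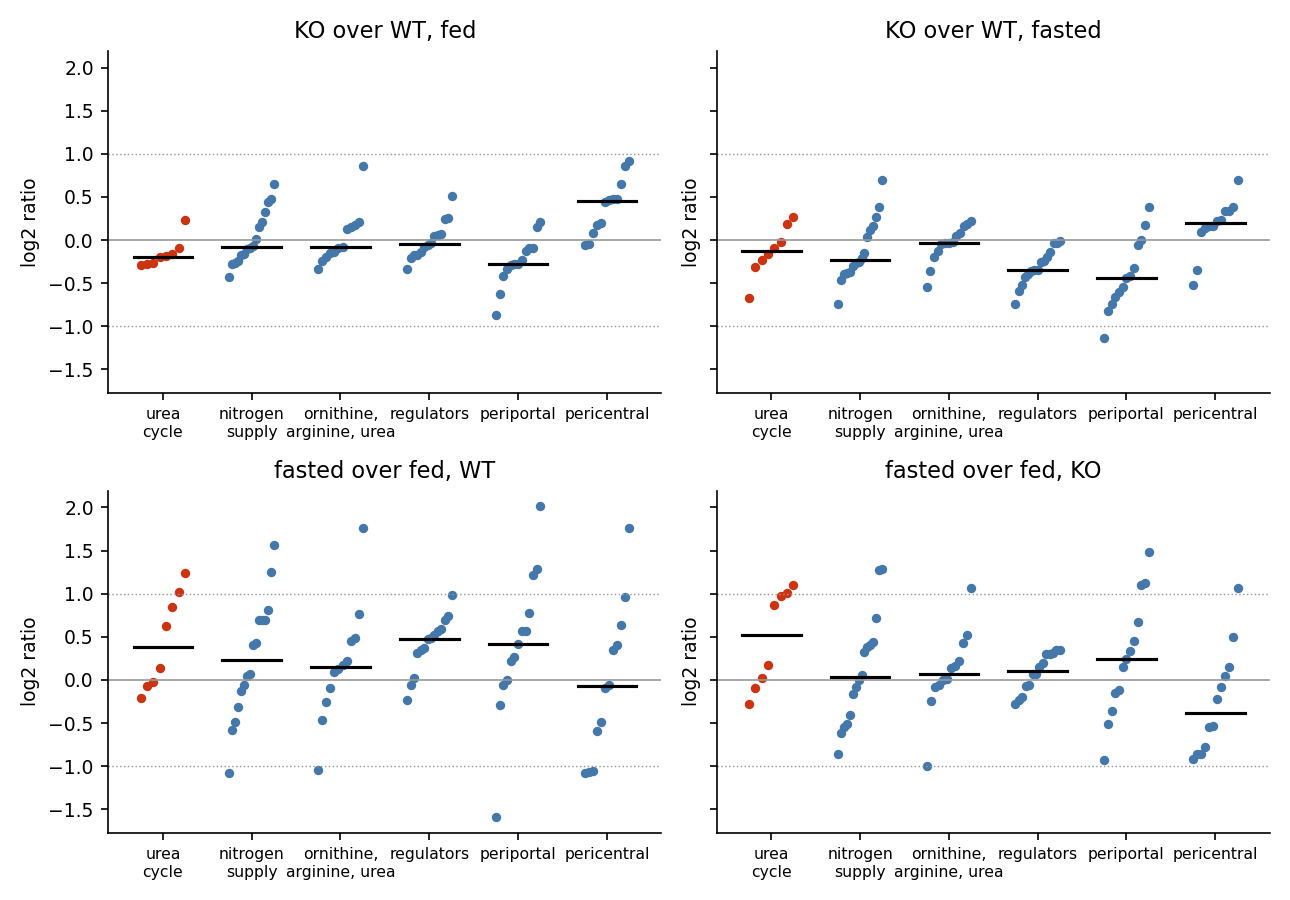
Log2 ratios (y axis) of the urea cycle genes (red) and of 5 related gene lists (blue) in KO over WT fed and fasted and in fasted over fed WT and KO; each point is 1 measured gene sorted within its list, the black line is the median and dotted lines mark 2-fold. In the fasting panels the urea cycle genes fall into a low and a high group of 4, and in the genotype panels they stay within 2-fold.

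Marker lists of liver zones and of other cells are given beside these ratios. Of all measured genes, 46.9% had a KO over WT ratio below 0 fed and 47.3% fasted, and 53.1% and 52.7% were above 0. At least 2-fold apart were 0.554% fed and 0.791% fasted. Portal hepatocyte markers, from the zone where the cycle is most active, had a median KO over WT ratio of -0.27 fed (11 of 13 below 0) and -0.44 fasted (10 of 13), and 1 of them, Pck1, was 2-fold apart, in the fasted comparison. Their summed normalized signal was 140000 in fed WT, 125000 in fed KO, 223000 in fasted WT and 149000 in fasted KO. A single gene made up much of each sum, Cyp2f2 with 47.4% in fed WT and Pck1 with 46.8% in fasted WT, and without these 2 genes the sums were 48000, 38400, 64700 and 49200. Central markers had a median KO over WT ratio of 0.45 fed and 0.19 fasted (10 of 12 above 0 in both), and none was 2-fold apart. Their sums were 177000, 224000, 207000 and 248000 in the same order, of which Cyp2e1 alone gave 48.7% to 67.8%, and without it 90900, 105000, 73000 and 79900. With arrays centred on all gene spots the portal median was 0.83 fed and 0.38 fasted, against 0.78 and 0.57 over all genes. Kupffer cell markers were below 0 in all 11 measured genes when fed (median -0.39) and in 5 of 11 when fasted (median 0.13). Under that centring their fed median was 0.49, against 0.78 over all genes. Csf1r of this list had 3 probes, at -0.47 (used), -0.33 and 0.05 in the fed comparison of the main processing. The sums of the Kupffer cell markers were 18900, 14000, 18500 and 19300. Hepatocyte markers had medians of 0.06 fed and 0.09 fasted (8 of 13 above 0 in both). Of these 1, Cyp3a11, was 2-fold apart, at -1.05 in the fasted comparison (second probe -1.19), and Apoa1 was at -0.99 there.

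For fasting over fed, the median was 0.41 in WT and 0.24 in KO for portal markers, -0.08 and -0.38 for central markers, and -0.06 and -0.02 for hepatocyte markers. Of the last list Cyp3a11 was at -0.21 in WT and -1.38 in KO, and its second probe at 0.16 and -0.87. Of all measured genes 49.4% were above 0 in WT and 50.2% in KO, and 50.6% and 49.8% were below 0. Kupffer cell markers had medians of 0.06 in WT (7 of 11 above 0) and 0.50 in KO (11 of 11). Sinusoidal endothelium had medians of 0.31 and 0.56 (9 of 10 above 0 in both), with Lyve1 at 1.34 and 1.49. Stellate cell markers had medians of -0.34 and -0.60 (7 of 9 below 0 in both), with Col3a1 at -1.69 and -1.70 and Col1a1 at -1.31 and -1.43. Without normalization between arrays, where the medians of all genes were 0.46 and 0.45, the stellate medians were -0.02 and -0.18. The endothelial ones were then 0.93 and 1.11, and the Kupffer ones 0.65 and 1.11. The part of these markers in the urea cycle values was not tested. In pooled tissue fewer cells of a type and less RNA per cell cannot be told apart.

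**Figure D5:**
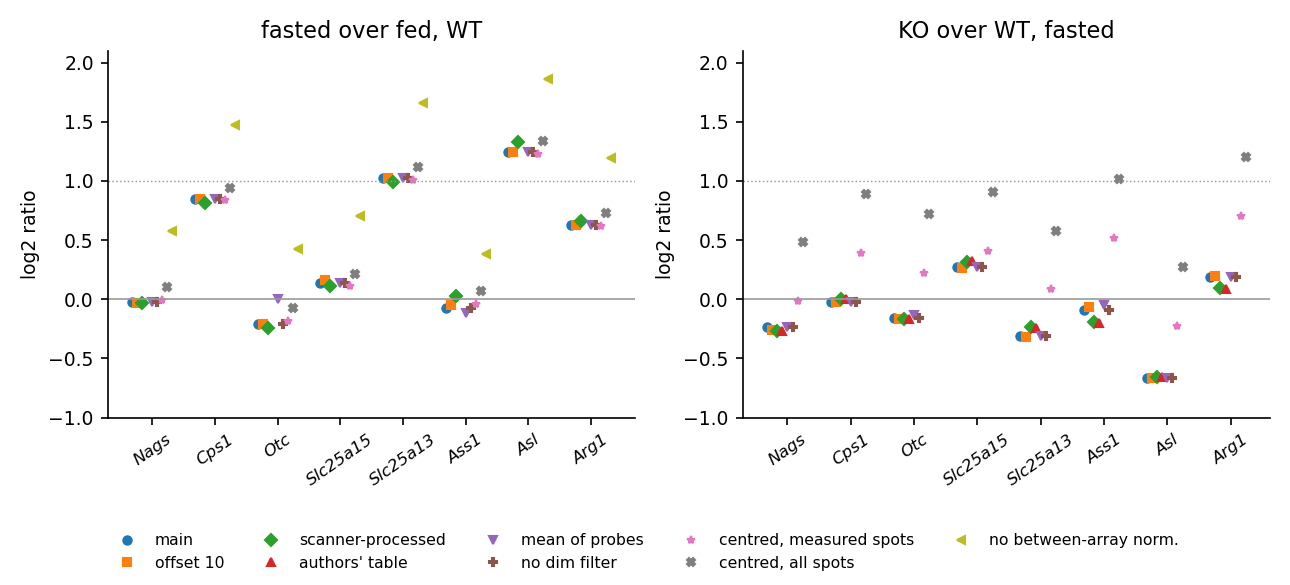
Log2 ratio (y axis) of each urea cycle gene (x axis) for fasted over fed in WT (left) and for KO over WT when fasted (right) under the main processing and each alternative, by symbol. On the left Cps1, Slc25a13, Asl and Arg1 stay above the other 4 genes under each setting while the lack of normalization between arrays lifts all 8, and on the right the centrings lift all 8 and Asl stays the lowest.

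The 8 genes shared no single profile. Among the genes nearest to their median over 3 log2 values (fasting in WT, fasting in KO and KO over WT fed), by Euclidean distance among 11290 genes measured in all 4 pools, were Cdc26 (0.02), Commd3 (0.02), 2310011J03Rik (0.03) and Nodal (0.04). The urea cycle genes themselves lay 0.55 (Arg1) to 0.998 (Otc) from it, and 3205 genes lay within the distance of Arg1.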

How the data were processed

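The files are scanner tables, made with Agilent Feature Extraction 10.10.1.1 per the file headers, beside a table of the authors' processed values. Deposited intensity values of spot and local background are medians over pixels, without normalization. Its processed intensity columns, also deposited, are background-subtracted and dye-normalized according to the file headers. Each deposited log10 ratio and its error came from that software's model for 1 spot, as does the deposited p-value, which was not used. The authors' table of log2 ratios differed from the log10 ratios, turned to log2, by at most 0.005, and its column medians were 0.00; further centring is unknown.

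Signals were background-corrected by normexp (offset 50), normalized by loess with control spots at weight 0 and scaled between arrays by Aquantile (limma 3.58.1, R 4.3.3). Outlier spots (216 fed, 197 fasted) were left out, spots of a probe averaged, and RefSeq accessions named through the GRCm38.p6 table, used for names and promoters only, since the array grid names mm9. The brightest probe stood for a gene. Measured means well above background in at least 50% of spots of each channel compared. The rule of size was 2-fold. Processing was tested on simulated data. The number of arrays limits the precision. Members and lists were chosen with earlier results of these data known. Named were all 8 urea cycle genes, Creb3l3, the 5 genes of nearest profile, of which 1 is not reported here, and up to 4 per list and comparison; further list genes and paralogs were named for their role. Motifs were chosen after values were seen.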

Additional observations from a re-analysis of the deposited data

Results flagged for a closer look

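The KO over WT ratio of Arg1 had opposite signs in the feeding states, at -0.20 fed and 0.18 fasted. The fasting difference of Ass1 had opposite signs in the genotypes, at -0.070 in WT and 0.027 in KO, both smaller than the median spread between spots. With 1 pool a group, neither difference was tested.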

How the results depend on the processing

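The alternatives were scanner-processed signals, centring in place of loess, an offset of 10, no normalization between arrays, the mean of probes, no dim filter and the authors' table. Of 280 values for single urea cycle genes, 199 moved by less than the spread between spots, 40 changed sign and 14 crossed 2-fold, with no 2-fold difference changing sign. Many of the 199 could not move. Every urea cycle probe was well above background, so leaving out the dim filter changed none. The mean of probes could change only the 2 genes with 2 probes. The median of the 8 genes moved under centring on all gene spots to 0.92 (KO over WT, fed), 0.80 (fasted), 0.47 (fasting, WT), 0.43 (fasting, KO) and -0.21 (difference of ratios), under centring on spots well above background to 0.21 fed and 0.30 fasted, and without normalization between arrays to 0.95 in WT and 1.11 in KO. That centring on all spots moved the median of all genes to 0.78 fed and 0.57 fasted. The urea cycle genes 2-fold apart became 4 fed, 2 fasted and 1 (fasting, KO) with centring on all spots, 1 (fasting, WT) with scanner-processed signals, and 4 in each genotype without normalization between arrays. Of all genes, 63 (fed), 97 (fasted), 495 (fasting, WT), 537 (fasting, KO) and 155 (difference) were 2-fold apart, against 174, 193, 879, 1061 and 341 with scanner-processed signals. The authors' table gave 175, 195 and 343 (difference), centring on all spots 3111 fed (3102 higher) and 956 fasted (940 higher), centring on spots well above background 154 fed, an offset of 10 97 fed, and no normalization between arrays 1152 in WT (1081 higher) and 1244 in KO (1164 higher). Centring on spots well above background turned the fed split to 113 higher and 41 lower, from 18 and 45, and the fasted split to 106 and 39, from 44 and 53. No paired analysis was possible because each group has 1 pool. Slc25a15 gave the weakest spot signal of the 8 genes.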

Other observations

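The zonal markers, which the report gives by their medians, held some larger differences than the cycle itself. Among portal markers Ctsc (-0.87) and Hal (-0.63), the histidine ammonia lyase, were the lowest in fed KO over WT, and Pck1 (-1.13), Sds (-0.82), which breaks down serine, and Gls2 (-0.74) in the fasted comparison. Pck1 was at 2.01 for fasting in WT and 0.67 in KO. Hsd17b13 (1.22 in WT, 1.48 in KO) and Hsd17b6 (1.29 and 1.10) were higher after fasting, and Cdh1 was at -1.59 and -0.93. The second probe of Hsd17b13, not measured for fasting in WT, was at 0.35 in KO. Among central markers Lhpp (0.91), Oat (0.85) and Slc1a2 (0.65) were the highest in fed KO over WT, and all 3 were nearer to 0 in the fasted comparison, at 0.10, 0.17 and 0.16. A second probe of Lhpp was at 0.59 fed and 0.03 fasted, and another of Slc1a2 at 0.41 and 0.20. Rhbg (-1.08 in WT, -0.86 in KO), Cyp1a2 (-1.07 and -0.92) and Rgn (-1.06 and -0.86) were lower after fasting, while Oat (1.76 and 1.07), Lhpp (0.96 and 0.15) and Cyp2e1 (0.63 and 0.49) were above 0, and the list's median was -0.08 in WT and -0.38 in KO. The fed KO over WT median of the central list stayed above 0 under each alternative, from 0.40 to 1.44. Centring on all gene spots put the median of all genes at 0.78 in that comparison.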
